A study of Mus musculus with 9 samples.

Results

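The genes described here are 10 markers of the endothelium, the cell layer that lines vessels: 8 of blood vessels (Pecam1, Cdh5, Kdr, Flt1, Tek, Plvap, Vwf and Emcn) and 2 used for lymphatic vessels (Lyve1 and Prox1). They were chosen by symbol from a table of 33539 genes, each symbol gave 1 row, and all 10 passed the filter on low counts, as did 19174 genes in all. The RNA came from whole colon of wild-type male C57BL/6 mice, 3 mice in each of 3 groups, collected at 84 h. The IR+CF-2 group had 13 Gy of irradiation plus CF-2 at 7.5 mg/kg, injected intraperitoneally 4 times, the first given 1 h ahead of the exposure and the others 24, 48 and 72 h past it. IR mice had 13 Gy alone, and Con mice were not irradiated and were given PBS or saline. CF-2 is a code name, no source used here gives the stretch of colon taken, and no group received CF-2 without irradiation. The submitters' texts differ on the age (8 or 6 weeks), on the field of irradiation (abdomen or whole body) and on the vehicle of Con mice.

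Blood vessel endothelium seals its cell contacts with adhesion molecules such as those of Pecam1 and Cdh5 and takes growth signals through VEGF receptors (Kdr, Flt1) and the angiopoietin receptor (Tek). In the gut, capillaries under the epithelium are fenestrated, and Plvap encodes the protein of their fenestral diaphragms. Lymphatic vessels, which drain fluid and carry absorbed fat, depend on the transcription factor Prox1 for their identity. Neither lymphatic marker is exclusive: Lyve1 is also present on some tissue macrophages, and Prox1 also acts in hormone-secreting epithelial cells.

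Library totals were 34.4 to 44.3 M counts. Libraries keep the numbers of their labels: 1, 2 and 3 in IR+CF-2, and 2, 3 and 4 in both IR and Con. Hoxa13, a homeobox gene of the distal hindgut, had 57.3, 74.8 and 56.8 CPM (the count relative to the library size after TMM scaling) in the IR+CF-2 libraries, against 2.73, 1.71 and 0.834 CPM in IR and 43.1, 1.05 and 8.06 CPM in Con. Its level separated IR+CF-2 from both other groups and split the Con libraries. IR+CF-2 2 had the highest level of 20.8% of all tested genes, the largest share of the 9 libraries. Epithelial markers were abundant in every library. The sum of 8 of them was 13400 to 16400 CPM in IR+CF-2, below the 18300 to 26500 CPM in IR and 20200 to 27500 CPM in Con. Car1 gave much of that gap, at 1330 to 3460 CPM in IR+CF-2, 7040 to 12800 CPM in IR and 6900 to 13000 CPM in Con. The mean log2 level of the 8 against Con overlapped between IR+CF-2 (-0.46, -0.20 and -0.21) and IR (-0.47, -0.22 and 0.02). In IR+CF-2 against IR 7 of the 8 were negative, and Slc26a3 was at 2.84 ± 0.76. In IR+CF-2 against Con 7 of the 8 were negative and 1 positive on the log2 scale. Epcam was at -0.48 ± 0.14 (edgeR adjusted p = 0.0498) and Car1 at -2.09 ± 0.40 (adjusted p = 0.0139). These 2 stayed under 0.05 in 6 and 18 of 21 alternative settings. The part of epithelium in the endothelial values was not tested.

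Per length, as the authors' FPKM, Plvap was the most abundant of the 10 genes, with a mean of 20.5 FPKM over the 9 libraries and a range of 9.39 to 35. Lyve1 followed with a mean of 6.4 FPKM, then Pecam1 with 4.93, Cdh5 with 3.09, Kdr with 2.12, Tek with 1.7, Vwf with 1.3, Flt1 with 1.13, Emcn with 0.799 and Prox1 with 0.752 FPKM. The lowest Plvap value was above every value of the genes from Cdh5 down. All neighbours in this order had overlapping ranges. The reads behind these levels were 726 to 2758 counts per library for Plvap and 89 to 358 for Emcn, the gene with the fewest.

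No member passed an adjusted p under 0.05 in any of the 3 comparisons (edgeR quasi-likelihood test, Benjamini-Hochberg adjustment over all 19174 tested genes). In IR against Con 0 of 10 members were called, where 3.21% of all tested genes were, 454 higher and 162 lower. Under RLE scaling that split was 173 and 104, and under the upper quartile it was 166 and 136. With the library number as a block the count was 944 genes and again 0 members. Likewise 0 of 10 members were called in IR+CF-2 against IR, beside 0.302% of all genes, and 0 of 10 in IR+CF-2 against Con, beside 19.2%. At an unadjusted p under 0.05 there was 1 member in IR against Con, where 23.9% of all genes were, 2 members in IR+CF-2 against IR beside 14.6%, and 1 in IR+CF-2 against Con beside 35.6%. DESeq2 called 0, 0 and 1 members in the same order of comparisons, the 1 being Prox1, and limma-voom called 0 in each.

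The fitted values of the 8 blood vessel genes nevertheless lay on the same side of 0 within each comparison. Their median log2 fold change was -0.46 in IR against Con, with all 8 negative, where the median of all tested genes was 0.01. It was 0.69 in IR+CF-2 against IR, with all 8 positive, where all genes had a median of 0.02, and 0.26 in IR+CF-2 against Con, with all 8 positive, also beside 0.02. The first and second of these comparisons share the IR libraries, so their opposite signs are not separate observations. In whole tissue, fewer endothelial cells and less RNA per cell cannot be told apart.

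Single libraries carried much of this pattern. IR+CF-2 2 had the highest level of 8 of the 10 members and Con 2 of the other 2 (Kdr and Prox1), and IR 4 had the lowest of 9, where 13.7% of all tested genes were lowest in IR 4. Summed over the 8 blood vessel genes, the level was 144, 285 and 140 CPM in IR+CF-2 libraries 1, 2 and 3, against 142, 125 and 74.4 CPM in IR 2, 3 and 4 and 205, 116 and 121 CPM in Con 2, 3 and 4. The groups overlapped in this sum. Without IR+CF-2 2 the median log2 fold change of the 10 members in IR+CF-2 against IR was 0.04 in place of 0.69, and without IR 4 it was 0.45. In IR against Con the median of -0.41 became -0.18 without IR 4 and -0.14 without Con 2. The median in IR+CF-2 against Con was 0.26, and -0.15 without IR+CF-2 2.

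**Figure D1:**
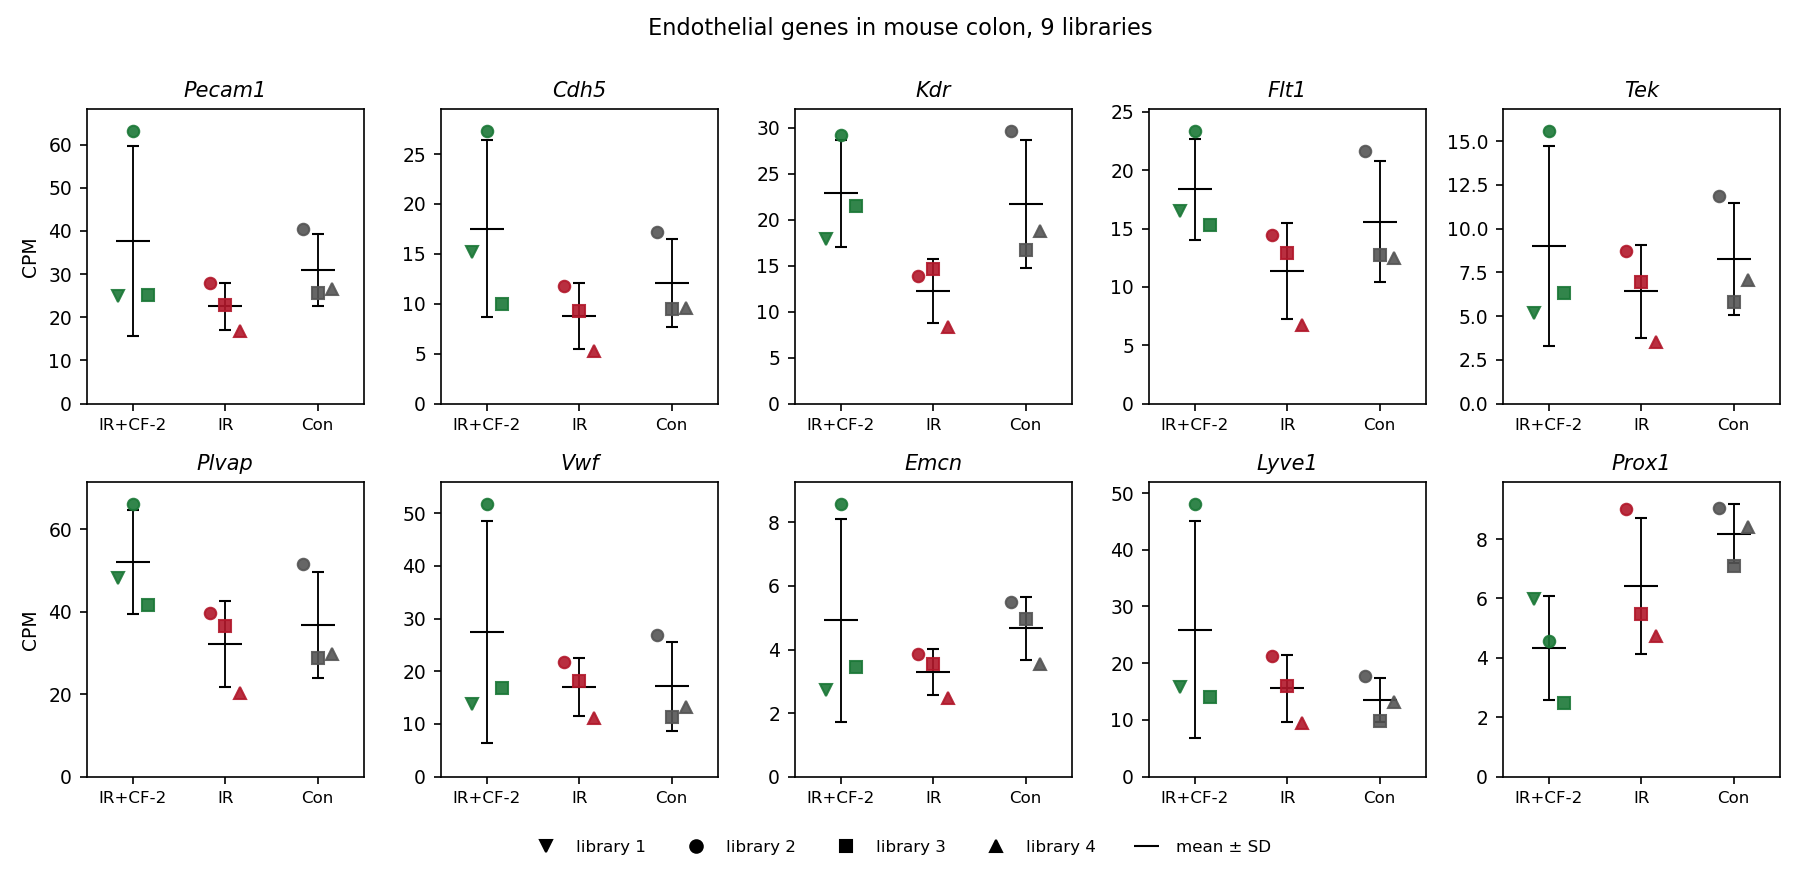
CPM of each of the 10 endothelial genes (y axis, linear from 0) in the IR+CF-2, IR and Con groups (x axis); points are libraries with a marker shape for each library number, and bars are the mean ± SD of 3 mice. IR+CF-2 2 is the highest point for 8 genes and IR 4 the lowest for 9, while Kdr and Prox1 are highest in Con 2.

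Pecam1 (ENSMUSG00000020717, chr11:106654217-106750628, minus strand; this and the following positions are GRCm38, GENCODE M21), an adhesion molecule of endothelial contacts that platelets and leukocytes also carry, had 24.9, 63.1 and 25.1 CPM in IR+CF-2 1, 2 and 3, against 27.8, 22.9 and 16.9 CPM in IR 2, 3 and 4 and 40.5, 25.7 and 26.5 CPM in Con 2, 3 and 4. The 3 groups overlapped, and apart from IR+CF-2 2 every library lay at or below Con 2. The log2 fold change was 0.74 ± 0.38 (standard error, 3 mice per group) in IR+CF-2 against IR (edgeR adjusted p = 0.414), -0.46 ± 0.38 in IR against Con (adjusted p = 0.49) and 0.29 ± 0.38 in IR+CF-2 against Con (adjusted p = 0.634). The 4 leukocyte markers, none at 0 in any library, summed to 19.2 to 37.5 CPM in IR+CF-2, 17.6 to 21.6 CPM in IR and 41.3 to 45.9 CPM in Con. In IR against Con 2 of them fell, Ptprc by 1.25 ± 0.27 (adjusted p = 0.0473) and Cd79a by 2.67 ± 0.53 (adjusted p = 0.0411), where 3.21% of all tested genes were called. Cd3e was at -2.31 ± 0.63 (adjusted p = 0.0723). The remaining marker, Itgam, did not fall, at 0.09 ± 0.25 (adjusted p = 0.852), and in IR+CF-2 against Con it was at 0.71 ± 0.25 (adjusted p = 0.0799). The calls of Ptprc and Cd79a were both lost whenever any IR or Con library was left out (adjusted p from 0.0522 to 0.212). The part of leukocytes in the Pecam1 values was not tested.

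Cdh5 (ENSMUSG00000031871, chr8:104101625-104144511, plus strand), VE-cadherin, the adherens junction cadherin of endothelium, had 15.2, 27.3 and 10 CPM in IR+CF-2, against 11.8, 9.32 and 5.28 CPM in IR and 17.2, 9.48 and 9.62 CPM in Con. IR+CF-2 3 lay below IR 2, so these groups overlapped. Cdh5 had the largest fitted difference of the members in IR+CF-2 against IR, 0.99 ± 0.43 on the log2 scale, with an unadjusted p of 0.0456 and an edgeR adjusted p of 0.334. Without IR+CF-2 2 it was 0.52.

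Kdr (ENSMUSG00000062960, chr5:75932827-75978458, minus strand), the main signalling receptor for VEGF-A, had 17.9, 29.3 and 21.5 CPM in IR+CF-2, against 13.9, 14.6 and 8.31 CPM in IR and 29.6, 16.7 and 18.8 CPM in Con. All 3 IR libraries lay below every IR+CF-2 and every Con library, and the IR+CF-2 and Con values covered nearly the same range. The log2 fold change was 0.90 ± 0.30 in IR+CF-2 against IR (unadjusted p = 0.0148, edgeR adjusted p = 0.224), and -0.82 ± 0.30 in IR against Con (unadjusted p = 0.0223, adjusted p = 0.142). Against Con, IR+CF-2 differed by 0.08 ± 0.30 (adjusted p = 0.885). Kdr was the single member lower in IR than in Con with no overlap of libraries, as were 13.8% of all tested genes, and 0 members were higher without overlap, where 22.6% of genes were. Under the 21 alternative settings the IR against Con value kept its sign, with adjusted p from 0.0444 to 0.478. The lowest p came from leaving out Con 3, IR 4 and IR+CF-2 2 together, the only setting in which Kdr was called, and the smallest difference, -0.41, came with the level of Hoxa13 as a covariate.

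Flt1 (ENSMUSG00000029648, chr5:147561604-147726011, minus strand) encodes VEGFR1, which binds VEGF-A, VEGF-B and PlGF and in its soluble form traps them. It had 16.5, 23.3 and 15.3 CPM in IR+CF-2, against 14.5, 12.9 and 6.7 CPM in IR and 21.6, 12.7 and 12.5 CPM in Con. IR+CF-2 and IR did not overlap, but IR+CF-2 3 and IR 2 were close, and Con overlapped both. The IR+CF-2 against IR difference was 0.69 ± 0.33 (edgeR adjusted p = 0.377), and the IR against Con difference was -0.46 ± 0.33 (adjusted p = 0.422).

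Kdr, Flt1 and Plvap were the 3 members higher in IR+CF-2 than in IR with no overlap, as were 7.26% of all tested genes, and 0 members were lower without overlap, as were 10.3%. These 3 genes had like profiles over the 9 libraries, so they are not 3 separate observations. Without IR+CF-2 2 the differences were 0.68 for Kdr (adjusted p = 0.219), 0.49 for Flt1 (adjusted p = 0.437) and 0.48 for Plvap (adjusted p = 0.414).

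The ligands of the VEGF system, counted with Flt4 and the co-receptors Nrp1 and Nrp2, gave 0 of 8 called genes in IR+CF-2 against IR, although all 8 values were positive (median 0.53), and 0 of 8 in IR against Con (median -0.24). Vegfa, the principal ligand of Kdr and Flt1, had 65.3, 87.1 and 57.6 CPM in IR+CF-2, against 61.5, 63.1 and 69.8 CPM in IR and 69.9, 90.1 and 63.3 CPM in Con. These groups overlapped throughout, with log2 fold changes of 0.11 ± 0.18 in IR+CF-2 against IR and -0.20 ± 0.18 in IR against Con. Vegfb, a ligand of Flt1, fell in IR+CF-2 against Con by 0.54 ± 0.17 on the log2 scale (adjusted p = 0.0491), at 11.9, 12.8 and 12.8 CPM against 19.8, 17.3 and 17.6 CPM. That call was lost in 12 of 21 alternatives, among them leaving out IR 2, IR 3, IR+CF-2 1, IR+CF-2 3 or any Con library (adjusted p from 0.0508 to 0.152, log2 from -0.58 to -0.48). Vegfc, a lymphatic growth factor, had a difference of 0.82 ± 0.31 in IR+CF-2 against IR (adjusted p = 0.27), and Nrp1 one of 0.38 ± 0.29 (adjusted p = 0.593).

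The RefSeq promoter table (GRCm38.p6) held 5 of the 10 members: Kdr, Flt1, Tek, Emcn and Prox1, the last with 2 start sites. Pecam1, Cdh5, Plvap, Vwf and Lyve1 were not matched. The windows of Kdr and Flt1, the VEGF receptors with separate IR+CF-2 and IR libraries, and of the first Prox1 start, the member least like the others, are shown from 250 bases before the start to 50 after it, 5′ to 3′ on the gene's strand. Capitals mark GGAA or its reverse complement TTCC, the core letters of ETS factor motifs. The Kdr window is chr5:75978406-75978705 (minus strand), the Flt1 window chr5:147725962-147726261 (minus strand) and the Prox1 window chr1:190170778-190171077 (minus strand).
Kdr: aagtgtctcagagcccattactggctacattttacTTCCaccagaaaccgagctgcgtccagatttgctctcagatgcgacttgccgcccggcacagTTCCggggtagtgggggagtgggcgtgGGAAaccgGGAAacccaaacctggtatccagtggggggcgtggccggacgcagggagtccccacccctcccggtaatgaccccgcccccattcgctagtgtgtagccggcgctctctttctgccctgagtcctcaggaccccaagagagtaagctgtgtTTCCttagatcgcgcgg
Flt1: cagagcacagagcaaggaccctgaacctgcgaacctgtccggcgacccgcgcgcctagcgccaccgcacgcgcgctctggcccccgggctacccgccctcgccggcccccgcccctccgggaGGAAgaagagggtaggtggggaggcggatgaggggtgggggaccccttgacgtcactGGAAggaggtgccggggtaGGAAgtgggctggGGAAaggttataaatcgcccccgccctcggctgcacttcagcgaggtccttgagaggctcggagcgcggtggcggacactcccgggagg
Prox1: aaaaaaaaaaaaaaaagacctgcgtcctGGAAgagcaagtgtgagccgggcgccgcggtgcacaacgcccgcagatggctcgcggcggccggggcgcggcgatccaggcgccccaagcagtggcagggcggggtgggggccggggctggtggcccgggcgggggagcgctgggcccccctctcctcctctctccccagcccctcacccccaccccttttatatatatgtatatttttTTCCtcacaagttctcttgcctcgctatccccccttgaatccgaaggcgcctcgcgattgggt
On both strands these windows held 5, 4 and 2 matches to GGAA in the order Kdr, Flt1, Prox1, and those of Tek, Emcn and the second Prox1 start held 2, 6 and 5. GGAA occurred in 96% of all 32851 promoters of the same length, with a median of 3 matches. GATAA, letters of GATA factor motifs, occurred in Tek and Emcn alone of the 6 windows and in 25.4% of all promoters, and ACAAT, letters of SOX factor motifs, occurred in the same 2 and in 31% of all. A base could count toward more than 1 motif. The Kdr and Flt1 windows, whose genes had like profiles, shared GGAA with nearly all promoters and held neither of the other motifs.

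Tek (ENSMUSG00000006386, chr4:94739289-94874976, plus strand), the TIE2 receptor for angiopoietins, had 5.18, 15.6 and 6.3 CPM in IR+CF-2, against 8.74, 6.97 and 3.53 CPM in IR and 11.9, 5.83 and 7.04 CPM in Con. IR+CF-2 2 was high and the other IR+CF-2 libraries lay inside the IR range, so the groups overlapped. The difference was 0.49 ± 0.49 in IR+CF-2 against IR (edgeR adjusted p = 0.696), and -0.16 without IR+CF-2 2. Of the 4 partner genes Angpt1, Angpt2, Tie1 and Ptprb, 0 were called in any comparison. All 4 were positive in IR+CF-2 against IR (median 0.75) and negative in IR against Con (median -0.45), the lowest adjusted p being 0.31 for Angpt2, at 1.02 ± 0.42 in IR+CF-2 against IR.

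Plvap (ENSMUSG00000034845, chr8:71497765-71511752, minus strand) had 48.1, 66 and 41.7 CPM in IR+CF-2, against 39.7, 36.5 and 20.2 CPM in IR and 51.6, 28.8 and 29.8 CPM in Con. Every IR+CF-2 library was above every IR library, with IR+CF-2 3 close to IR 2, and Con spanned both. The difference was 0.69 ± 0.31 in IR+CF-2 against IR (edgeR adjusted p = 0.355), -0.19 ± 0.31 in IR against Con (adjusted p = 0.731) and 0.50 ± 0.31 in IR+CF-2 against Con (adjusted p = 0.288).

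Vwf (ENSMUSG00000001930, chr6:125546774-125686679, plus strand), von Willebrand factor, which tethers platelets and is made by endothelium and megakaryocytes, had 13.7, 51.7 and 16.8 CPM in IR+CF-2, against 21.8, 18.1 and 11.1 CPM in IR and 26.9, 11.4 and 13.2 CPM in Con. The IR+CF-2 group had a 3.76-fold range, the widest of any member in any group, because IR+CF-2 2 stood far above the other 2. The difference was 0.69 ± 0.54 in IR+CF-2 against IR (edgeR adjusted p = 0.602) and -0.01 ± 0.53 in IR against Con (adjusted p = 0.992). Without IR+CF-2 2 the first was -0.16. Of 6 platelet and megakaryocyte genes, Ppbp and Gp9 were too low to test, at 0 to 0.335 CPM, and 0 of the other 4 were called. Pf4 had 3.47, 15.5 and 3.96 CPM in IR+CF-2, against 6.3, 4.06 and 2.33 CPM in IR and 2.2, 2.1 and 1.88 CPM in Con. The other tested genes of the list did not all follow it: in IR+CF-2 against IR, Itga2b was at -0.57 ± 0.30, Gp1ba at 0.47 ± 0.35 and Itgb3 at 1.21 ± 0.37, and in IR against Con Gp1ba was at -0.65 ± 0.35 where Pf4 was at 1.04 ± 0.59. The part of platelet RNA in the Vwf values was not tested.

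Emcn (ENSMUSG00000054690, chr3:137341067-137432185, plus strand), endomucin, a surface sialomucin of capillaries and veins, had 2.73, 8.57 and 3.44 CPM in IR+CF-2, against 3.85, 3.56 and 2.47 CPM in IR and 5.49, 4.96 and 3.55 CPM in Con. IR+CF-2 2 was the highest library, while IR+CF-2 1 and 3 lay below every Con library and within the IR range. The difference was 0.58 ± 0.43 in IR+CF-2 against IR (edgeR adjusted p = 0.583) and -0.09 without IR+CF-2 2, and it was -0.50 ± 0.43 in IR against Con (adjusted p = 0.501).

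**Figure D2:**
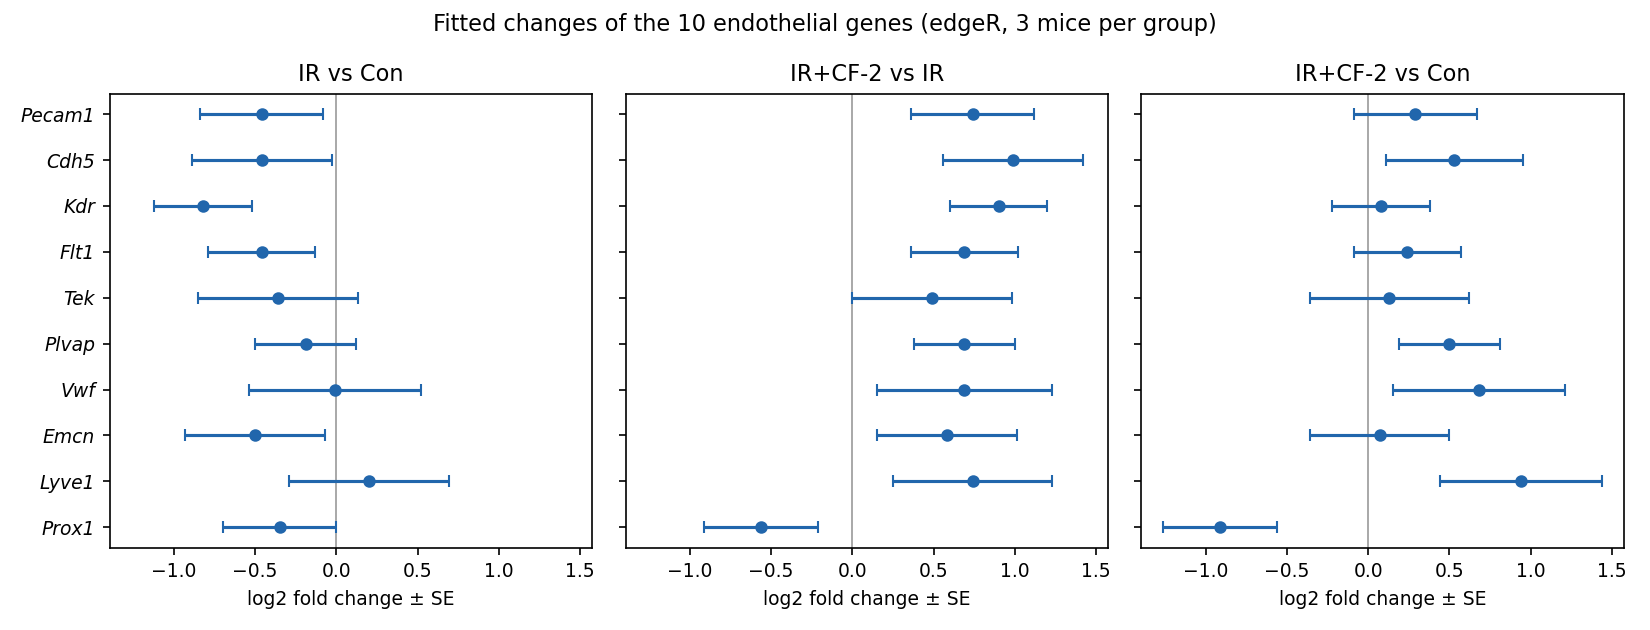
Fitted log2 fold changes (x axis, ± standard error, 3 mice per group) of the 10 endothelial genes (rows) in IR against Con, IR+CF-2 against IR and IR+CF-2 against Con. The 8 blood vessel genes lie at or left of 0 in the first panel and right of 0 in the second, Prox1 lies left of 0 in all 3, and no adjusted p is under 0.05.

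Lyve1 (ENSMUSG00000030787, chr7:110850607-110863239, minus strand), a hyaluronan receptor of lymphatic endothelium, had 15.8, 48 and 14 CPM in IR+CF-2, against 21.3, 16 and 9.45 CPM in IR and 17.7, 9.86 and 13.1 CPM in Con. The 3 groups overlapped, and IR+CF-2 2 was the only library above 21.3 CPM. The difference was 0.74 ± 0.49 in IR+CF-2 against IR (edgeR adjusted p = 0.535), 0.20 ± 0.49 in IR against Con (adjusted p = 0.831) and 0.94 ± 0.50 in IR+CF-2 against Con (adjusted p = 0.209). Without IR+CF-2 2 the first was -0.06. The macrophage marker Cd163 had 7.18, 20.4 and 5.53 CPM in IR+CF-2, against 8.77, 6.05 and 4.25 CPM in IR and 5.94, 3.19 and 4.86 CPM in Con. It is among the 3 genes nearest to Lyve1 in profile, so its like course is a selected one. Of the 8 macrophage markers all but Timd4 were highest in IR+CF-2 2, as Lyve1 was. The lead of that library varied: Cd68 had 14.3, 31.6 and 11.2 CPM in IR+CF-2, and C1qa had 52.8, 58.9 and 33.9 CPM. Timd4 was instead highest in IR 2, at 1.38 against 1.1 CPM in IR+CF-2 2. The 8 macrophage markers, none at 0 in any library, summed to 105 to 229 CPM in IR+CF-2, 74.4 to 110 CPM in IR and 62.1 to 87.3 CPM in Con. In IR+CF-2 against Con 5 of these 8 markers rose, in 12 to 14 of 21 alternatives, where 19.2% of all tested genes were called. Their part in the Lyve1 values was not tested.

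Prox1 (ENSMUSG00000010175, chr1:190118035-190170714, minus strand) had 5.97, 4.57 and 2.49 CPM in IR+CF-2, against 9.02, 5.49 and 4.75 CPM in IR and 9.04, 7.1 and 8.41 CPM in Con. Every IR+CF-2 library was below every Con library, and IR overlapped both. The log2 fold change was -0.91 ± 0.35 in IR+CF-2 against Con (unadjusted p = 0.0292, edgeR adjusted p = 0.0997), -0.56 ± 0.35 in IR+CF-2 against IR (adjusted p = 0.499) and -0.35 ± 0.35 in IR against Con (adjusted p = 0.568). It was the single member lower without overlap in IR+CF-2 against Con, as were 19.6% of all tested genes, and 0 members were higher without overlap, where 20.1% of genes were. Over the 21 alternatives the IR+CF-2 against Con value lay between -1.35 and -0.63, with adjusted p from 0.0448 (DESeq2, the only setting to call it) to 0.231. An antisense transcript gene, Prox1os, shares 1.59% of the exon bases of Prox1, and no other member shares exon bases with an annotated gene.

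Several other lymphatic genes were at their highest in IR+CF-2 2, where Prox1 was not. Flt4, the VEGF-C receptor VEGFR3, had 6.66, 25 and 5.4 CPM in IR+CF-2, against 8.83, 5.63 and 6.2 CPM in IR and 13, 5.47 and 6.53 CPM in Con. In that library Ccl21a, Mmrn1 and Reln, chosen after their values were seen, were also at their highest, with 52.7, 40.7 and 18.8 CPM, as was Lyve1, while Prox1 had 4.57 CPM. Itga9 was instead highest in IR+CF-2 1, at 34.6 against 33.7 CPM in IR+CF-2 2, and Nrp2 in Con 2, at 128 against 120 CPM in IR+CF-2 2. Of 8 further lymphatic genes, 7 were tested (not Foxc2) and 0 were called in IR+CF-2 against IR (median 0.68, all 7 positive) or in IR against Con (median -0.21). Pdpn, podoplanin, which fibroblasts also make, rose in IR+CF-2 against Con by 1.75 ± 0.33 (adjusted p = 0.0133), at 26.2, 29.1 and 21.2 CPM against 8.84, 8.41 and 5.46 CPM, and lost the call without Con 4 (1.56, adjusted p = 0.0538) and with Hoxa13 as a covariate (1.53, adjusted p = 0.19).

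Among genes of hormone-secreting epithelial cells, Chgb, a granule protein, had 79, 161 and 62.7 CPM in IR+CF-2, against 219, 205 and 181 CPM in IR and 88.5, 109 and 106 CPM in Con. It was highest in the IR libraries, and no test was passed (edgeR adjusted p = 0.191 in IR+CF-2 against IR). Sct, the secretin gene, had 6.01, 1.8 and 9.94 CPM in IR+CF-2, against 10.9, 18 and 17.9 CPM in IR and 10.8, 17 and 11.2 CPM in Con. Like Prox1 it was lower in every IR+CF-2 library than in every Con library, as were 19.6% of all tested genes, at -1.13 ± 0.51 (adjusted p = 0.15). The 7 genes of that list summed to 264 to 683 CPM in IR+CF-2, 388 to 438 CPM in IR and 231 to 320 CPM in Con, with none at 0. In IR+CF-2 against Con 4 of them were negative and 3 positive, and 2 rose, where 19.2% of all tested genes were called. Insl5 rose by 5.28 ± 0.86 (adjusted p = 0.00992), in 20 of 21 alternatives, and Gcg by 0.87 ± 0.24 (adjusted p = 0.038), in 11 of 21. Pyy was at 1.52 ± 0.48 (adjusted p = 0.0551). All 3 were higher in every IR+CF-2 library than in every Con library, as were 20.1% of all tested genes. The part of hormone-secreting cells in the Prox1 values was not tested.

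Likeness of profile was measured as the root mean square difference in centred log2 CPM over the 9 libraries. The nearest member was at 0.13 for Flt1 and Plvap (each other), at 0.19 for Pecam1 and Tek (each other), Kdr (Flt1) and Emcn (Pecam1), at 0.20 for Vwf and Lyve1 (each other) and at 0.21 for Cdh5 (Plvap). Prox1 was at 0.65 from its nearest member, Emcn, a distance beyond the median of 0.59 between Prox1 and all tested genes. Of genes outside the set, the 3 nearest to Tek were Abca8a (0.14), its partner receptor Tie1 (0.16) and Scn7a (0.16). Those nearest to Cdh5 were Nos3, the endothelial nitric oxide synthase gene (0.15), Mustn1 (0.15) and Lsp1 (0.16). Vwf was nearest to Mmp23, Gja5 and Ptprb (0.20 each). The nearest to Lyve1 were Lbp (0.12), Cd163 (0.14) and Mfap5 (0.16), and to Emcn the capillary gene Cd300lg (0.11), Gng7 (0.13) and Prxl2a (0.14). Kdr was nearest to Tmcc2 (0.16), Arhgef6 and Ttll7 (0.18 each). Flt1 was nearest to BC034090 (0.11), Adcy3 (0.12) and Stx2 (0.13), and Plvap to Fndc4, Susd4 (0.10 each) and Ggta1 (0.11). Pecam1 was nearest to Nuak1, Timp2 and Dync2li1 (0.12 to 0.13), and Prox1 to Pla2g4e, Kcnip1 and Edar (0.24 to 0.28).

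A further list held 20 other blood endothelial genes. All 20 were positive in IR+CF-2 against IR, with a median of 0.62 and 0 called, and in IR against Con 16 of 20 were negative, with a median of -0.30 and 0 called. Against Con, 13 of 20 were positive and 7 negative in IR+CF-2 (median 0.31), where all 8 blood vessel members were positive. In that comparison 2 of 20 rose, beside 19.2% of all tested genes called in either direction. The lowest was Clec14a, with 7.06, 19.8 and 6.69 CPM in IR+CF-2, against 9.61, 7.64 and 14.8 CPM in IR and 22.7, 23.7 and 22.9 CPM in Con, at -1.05 ± 0.42 in IR+CF-2 against Con (adjusted p = 0.109). Ecscr, an endothelial chemotaxis regulator, had 46.6, 16.2 and 28 CPM in IR+CF-2, against 23, 21.6 and 9.25 CPM in IR and 7.61, 4.27 and 5.37 CPM in Con, and rose by 2.39 ± 0.46 against Con (edgeR adjusted p = 0.0144). It was lowest of its group in IR+CF-2 2, as no member was. Eng, the TGF-beta co-receptor endoglin, rose by 1.00 ± 0.30 against Con (adjusted p = 0.0468). The Ecscr call was lost without Con 3 (adjusted p = 0.0547) or Con 4 (adjusted p = 0.0608), and the Eng call without IR 3 or without any IR+CF-2 or Con library (adjusted p from 0.07 to 0.152).

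The members were also set against the geometric mean of those 20 genes in each library. This ratio was computed after the values had been seen and is a description. For Kdr it was 3.03, 2.61 and 4.05 in IR+CF-2, against 2.28, 2.67 and 2.28 in IR and 3.76, 3.01 and 3.76 in Con. IR lay below Con without overlap, as it did for Pecam1, at 4.5, 4.14 and 4.5 in IR against 5.11, 4.59 and 5.26 in Con. On this scale 2.61% of all genes were so placed, while 20% were higher in IR without overlap, with 0 members. The 20 genes of the scale had a median log2 fold change of -0.30 in IR against Con. A scale that falls moves all other ratios up, so these shares depend on the scale as well as on the genes. IR+CF-2 2 no longer stood above IR for Kdr. The Lyve1 ratio was higher in IR+CF-2 than in Con by a narrow margin, at 2.69, 4.25 and 2.66 against 2.27, 1.81 and 2.65, as for 3.39% of genes. The Prox1 ratio was lower in IR+CF-2 than in Con, at 1.07, 0.444 and 0.551 against 1.19, 1.33 and 1.74, as for 15% of genes.

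**Figure D3:**
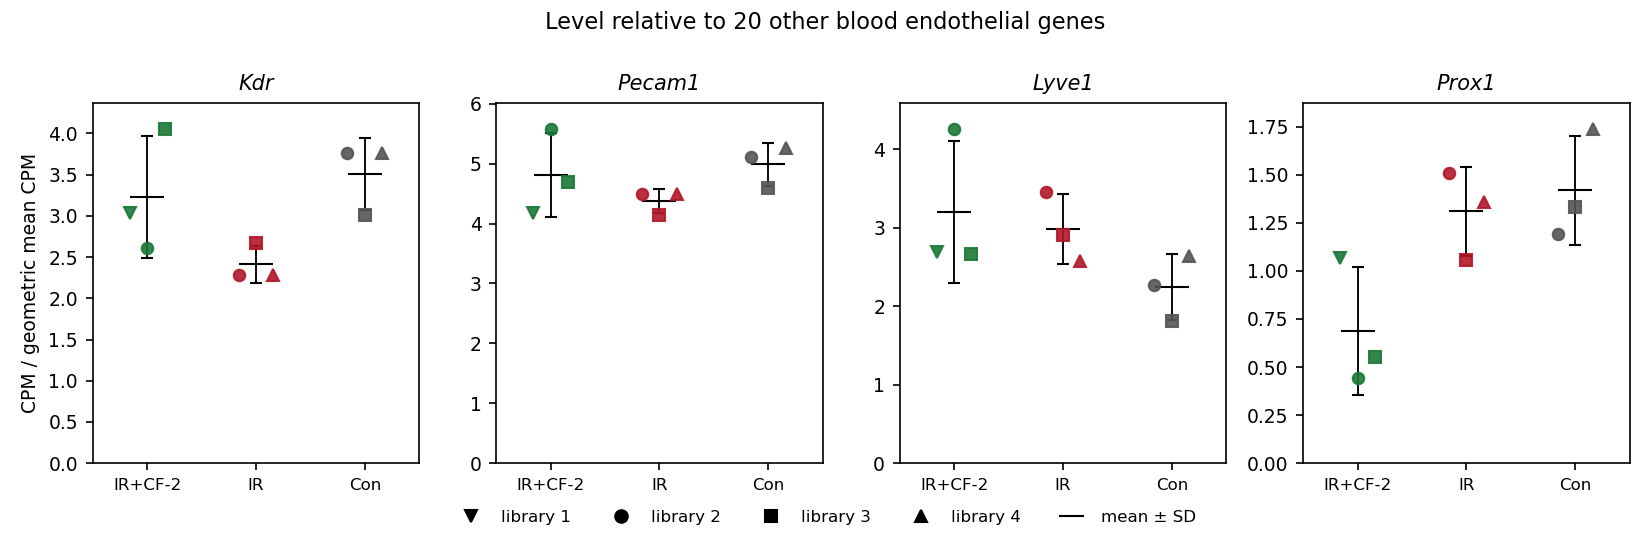
Ratio of CPM to the geometric mean CPM of 20 other blood endothelial genes in the same library (y axis, linear from 0) for Kdr, Pecam1, Lyve1 and Prox1 in IR+CF-2, IR and Con (x axis); points are libraries, bars the mean ± SD of 3 mice. Kdr and Pecam1 are lower in every IR library than in every Con library, and Prox1 is lowest in IR+CF-2 2 and 3.

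Genes that endothelium switches on in inflammation differed in pattern from the vessel markers. Of 5 leukocyte adhesion genes, 4 were tested (not Sele), and 3 of them rose in IR+CF-2 against Con, where 19.2% of all tested genes were called. In IR against Con (median 1.26) and in IR+CF-2 against IR (median 0.73) 0 were called. Icam1 had 75.7, 22.4 and 25.2 CPM in IR+CF-2, against 30.5, 33.8 and 10.1 CPM in IR and 6.81, 7.03 and 5.8 CPM in Con. It rose by 2.65 ± 0.57 in IR+CF-2 against Con (edgeR adjusted p = 0.0185), Selp, the P-selectin gene, by 2.78 ± 0.59 (adjusted p = 0.0181) and Vcam1 by 1.32 ± 0.28 (adjusted p = 0.0173). Selp had 1.45, 2.49 and 0.645 CPM in IR+CF-2, against 1.24, 0.952 and 0.445 CPM in IR and 0.242, 0.256 and 0.161 CPM in Con. Its Con values rested on only 10, 10 and 6 counts. The proteins of these 3 genes are also made outside endothelium, Icam1 by epithelium and leukocytes and Selp by platelets. Without IR+CF-2 1, the library with 75.7 CPM, the Icam1 difference was 1.86 (adjusted p = 0.0498). All 3 calls were lost when any Con library was left out, and those of Selp and Vcam1 also without IR+CF-2 1, with adjusted p from 0.0521 to 0.0735 in these fits. Antisense genes share 11.7% of the exon bases of Icam1 and 14.1% of those of Selp.

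Among genes of blood clotting and vessel tone, Plat rose in IR+CF-2 against IR, and Plat, F3 and Procr rose in IR+CF-2 against Con. Plat, tissue plasminogen activator, had 42.9, 37.3 and 31.4 CPM in IR+CF-2, against 19.1, 16.2 and 15.6 CPM in IR and 15.3, 11.7 and 12.4 CPM in Con. IR+CF-2 was above both other groups without overlap, by 1.13 ± 0.17 against IR (edgeR adjusted p = 0.0403) and 1.50 ± 0.17 against Con (adjusted p = 0.00578). The call against Con held in 20 of 21 alternatives and that against IR in 10 of 21. Against IR it was lost when any IR or Con library was left out, and without IR+CF-2 1 (adjusted p from 0.0533 to 0.197). F3, tissue factor, rose by 2.24 ± 0.49 (adjusted p = 0.0193) and Procr, the endothelial protein C receptor, by 1.29 ± 0.37 (adjusted p = 0.04). Leaving out any Con library or IR+CF-2 1 ended the F3 call (adjusted p from 0.0547 to 0.0774), and these or IR 2, IR 3 or IR+CF-2 3 the Procr call (adjusted p from 0.0524 to 0.134).

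Of arterial and venous genes, 1 of 8 and 1 of 4 were called in IR+CF-2 against Con, where 19.2% of all tested genes were. In IR against Con and in IR+CF-2 against IR 0 were called. Of 8 arterial genes 1 fell in IR+CF-2 against Con, Bmx, at 0.618, 1.6 and 0.344 CPM against 2.68, 2.86 and 2.55 CPM, a difference of -1.66 ± 0.49 (edgeR adjusted p = 0.0444) whose call was lost without any single library but IR+CF-2 2 (adjusted p from 0.0549 to 0.141). Of 4 venous genes the called one was Selp, with the low Con counts given above. Among 7 tested pericyte genes Pdgfrb, the receptor that holds pericytes to capillaries, fell in IR against Con by 0.90 ± 0.18 (adjusted p = 0.0401), at 16.8, 13.3 and 12.6 CPM in IR against 29.1, 26.3 and 24.6 CPM in Con, and had 27.4, 33.7 and 22.8 CPM in IR+CF-2. Like Kdr it had an IR range below both other groups. The Pdgfrb call was lost without any single library other than IR+CF-2 2 (adjusted p from 0.0506 to 0.197). The pericyte genes did not move together: in IR against Con 4 of 7 were negative and 3 positive (median -0.38), among them Notch3 at 0.91 ± 0.40 (adjusted p = 0.211). Notch3 and Kcnj8 rose in IR+CF-2 against Con, by 1.53 ± 0.41 (adjusted p = 0.033) and 1.27 ± 0.30 (adjusted p = 0.0229). Leaving out IR+CF-2 1, Con 3 or Con 4 ended both calls, as did IR 3 or IR+CF-2 3 for Notch3 and Con 2 for Kcnj8 (adjusted p from 0.0561 to 0.113).

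Markers of other stromal cells also differed between libraries, only in part the same ones. The 6 fibroblast markers summed to 1530 to 3140 CPM in IR+CF-2, 519 to 1380 CPM in IR and 630 to 1310 CPM in Con, with the highest sum in IR+CF-2 2 and the lowest in IR 4. Of the 6, 1 rose in IR+CF-2 against Con, Col3a1, in 8 of 21 alternatives, where 19.2% of all tested genes were called. The 6 smooth muscle markers summed to 2920 to 4520 CPM in IR+CF-2, 1380 to 3280 CPM in IR and 2280 to 5620 CPM in Con, with 0 called. Their sum was also lowest in IR 4, but it was highest in Con 2, at 5620 CPM against 4520 CPM in IR+CF-2 2. No gene of either list was at 0 in any library. The sum of the 8 pericyte genes was lowest in IR 4 (192 CPM) and highest in Con 2 (669 CPM), with 380 CPM in IR+CF-2 2. Rgs5 alone gave much of that sum, with 559 CPM in Con 2 and 196 CPM in IR+CF-2 2. The mean log2 level of the tested pericyte genes against Con was instead highest in IR+CF-2 2 (0.51, against 0.28 in Con 2). It was again lowest in IR 4 (-0.73). With the log2 level of Hoxa13 as a covariate, the median log2 fold change of the members was -0.30 in IR+CF-2 against IR and -0.03 in IR against Con, and 0 members were called. Each call of a gene named above from the other lists was lost in that fit. The whole table then gave 0 calls in IR+CF-2 against IR in place of 58, and 6 against Con in place of 3677. Hoxa13 itself separated IR+CF-2 from both other groups, so the loss of a call there cannot tell its level from the treatment. In IR+CF-2 against Con the fit with Hoxa13 gave 2.23 for F3, 2.48 for both Icam1 and Selp, -1.63 for Bmx and -0.60 for Vegfb. It gave 1.25 for Plat and 1.07 for both Vcam1 and Procr, and these differences were near those above. Smaller ones were 0.59 for Eng, 1.81 for Ecscr, 0.74 for Notch3 and 0.69 for Col3a1 (1.41 without Hoxa13). Plat against IR was at 0.70 in place of 1.13. The part of the other stromal cells in the endothelial values was not tested.

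**Figure D4:**
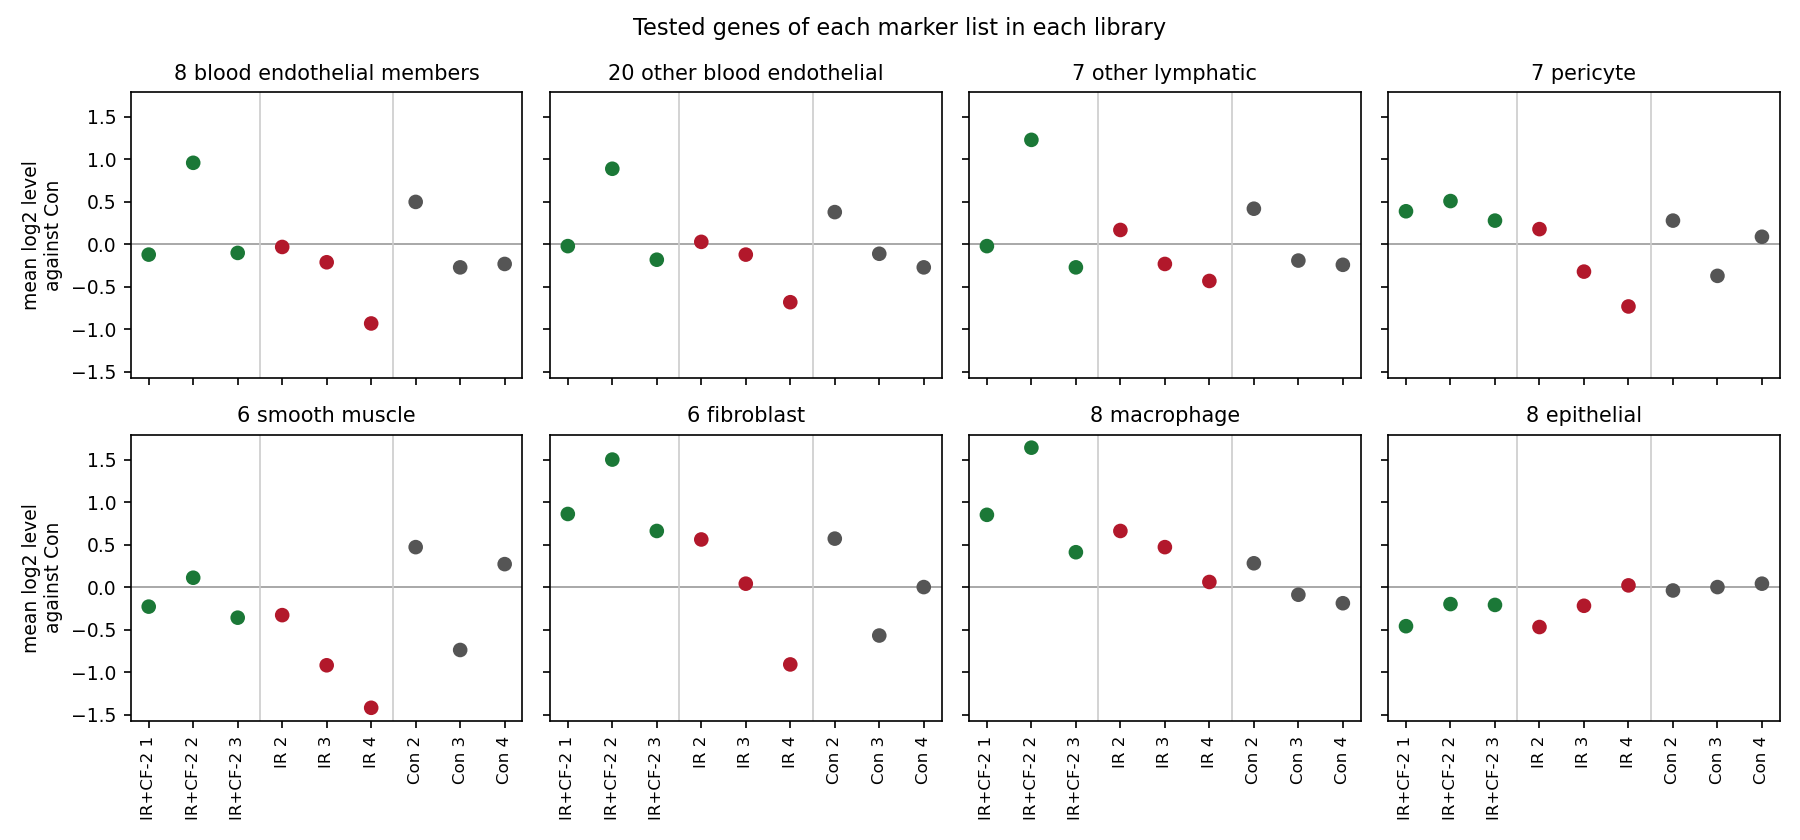
Mean log2 level against the Con mean (y axis) of the tested genes of 8 marker lists in each of the 9 libraries (x axis; IR+CF-2, IR, Con). The 8 blood endothelial genes (0.96 in IR+CF-2 2 and -0.93 in IR 4) and the fibroblast list (1.50 and -0.91) have their extremes in the same 2 libraries.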

How the data were processed

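Poly(A) RNA of 9 colon libraries was sequenced in read pairs; the strand setting is not given in the sources used here. HISAT2, featureCounts and DESeq2 are named, without versions, per the submitters' processing notes, with GRCm38 (mm10) as the build. Per the file headers the deposited table holds a raw count per gene and library, 34.4 to 44.3 M in total, and an FPKM value made by the authors. FPKM served only to compare levels between genes. No label states that mice were pooled or repeated, and no 2 libraries were identical.

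edgeR 4.0.16 (R 4.3.3) modelled the counts of the 9 libraries by group alone, with filterByExpr, TMM and the robust quasi-likelihood F-test, giving 19174 tested and 14365 untested genes and a biological coefficient of variation of 30.6%. A gene was called at a 2-sided p under 0.05 after Benjamini-Hochberg adjustment. Standard errors are log2 fold changes divided by the root of F. CPM uses TMM-scaled library sizes. Ratios and likeness used CPM with an offset of 0.5. The pipeline was tested on simulated data.

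The members and the other gene lists were chosen with earlier results of these data known. From the other lists, at most the 4 genes with the smallest adjusted p in a comparison are named, with any gene past the threshold and the direct partners of a member. Not every gene that qualifies is printed. Genes most like a member are the 3 with the smallest root mean square difference. Exceptions are stated, and a listed gene is not reported here.

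Same-numbered libraries of IR and Con deviated together from their group means (correlations of 0.35, 0.14 and 0.11 for numbers 2, 3 and 4), though no label says that the number marks a shared litter or day. For IR+CF-2 the shared numbers 2 and 3 gave 0.12 and 0.05 with IR and 0.26 and 0.06 with Con. Libraries of unlike number gave -0.22 to 0.08 between IR and Con. Those of IR+CF-2 gave -0.27 to 0.34 with IR and -0.24 to 0.19 with Con, so there unlike numbers reached values as high.

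Alternatives tried were scaling by RLE or upper quartile, no filter, a filter of CPM of at least 1 in 3 libraries, DESeq2 1.42.0, limma-voom (limma 3.58.1), a fit without robust shrinkage, the compared groups alone, the replicate block, an adjusted p under 0.01, Hoxa13 as a covariate, and leaving out libraries.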

Additional observations from a re-analysis of the deposited data

How the results depend on the processing

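The 3 mice per group limit what can be called: the number of genes called over the whole table moved widely with the settings, while the members called stayed at 0 in nearly all. Genes called in IR against Con were 616, and 277 with RLE scaling, 302 with upper quartile scaling, 339 with no filter, 2285 with DESeq2, 186 with limma-voom, 2307 in the compared groups alone, 944 with the replicate block, 1 at an adjusted p under 0.01, 49 with Hoxa13 as a covariate, 4806 without Con 3, IR 4 and IR+CF-2 2 together, and 1 to 3085 with 1 library left out. Between IR+CF-2 and IR they were 58, and 121 with no filter, 994 with DESeq2, 6 in the compared groups alone, 6 with the replicate block, 5 at an adjusted p under 0.01, 0 with Hoxa13, 882 without the 3 libraries, and 5 to 597 with 1 left out. Between IR+CF-2 and Con they were 3677, and 462 with the replicate block, 342 at an adjusted p under 0.01, 6 with Hoxa13, 7622 without the 3 libraries, and 685 to 6721 with 1 left out. The causes were not tested.

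Members called were 0 under every setting with 2 exceptions: Kdr in IR against Con without the 3 libraries (1 member, -0.77, adjusted p = 0.0444) and Prox1 in IR+CF-2 against Con with DESeq2 (1 member, -0.91, adjusted p = 0.0448). The replicate block changed no call of a member. With it the differences of Prox1 were -0.95 in IR+CF-2 against IR and -1.35 in IR+CF-2 against Con, and that of Kdr in IR against Con was -0.82 (adjusted p = 0.0751). In the comparisons with IR+CF-2 only 2 numbers are shared, and there the block ended the call of Plat against IR (0.97) and, against Con, of Eng (0.80), Ecscr (1.70), Vegfb (-0.46), Bmx (-1.64), Selp (2.33), Icam1 (1.53), Vcam1 (0.98), F3 (1.57), Procr (0.81), Notch3 (1.54), Kcnj8 (0.90), Gcg (0.92), Col3a1 (1.22), Epcam (-0.48) and the 5 macrophage markers (0.65 to 1.55). In IR against Con the block ended the call of Cd79a (-2.46, edgeR adjusted p = 0.0625).

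Signs turned as follows, none of these values being called. In IR against Con, limma-voom gave 0.03 and the block 0.07 for Vwf, and Hoxa13 gave 0.00 for Cdh5, 0.20 for Tek, 0.24 for Plvap and 0.64 for Vwf. For IR+CF-2 against IR, Hoxa13 gave -0.10 for Pecam1, -0.10 for Cdh5, -0.06 for Kdr, -0.27 for Flt1, -0.82 for Tek, -0.32 for Plvap, -0.76 for Vwf and -0.43 for Lyve1. Leaving out the 3 libraries gave -0.03 for Pecam1, -0.45 for Tek, -0.39 for Vwf, -0.26 for Emcn and -0.32 for Lyve1. For IR+CF-2 against Con, limma-voom gave -0.10 for Emcn, and Hoxa13 gave -0.21 for Pecam1, -0.10 for Cdh5, -0.47 for Kdr, -0.32 for Flt1, -0.63 for Tek, -0.08 for Plvap, -0.12 for Vwf and -0.14 for Emcn. Leaving out the 3 libraries gave -0.43 for Pecam1, -0.09 for Cdh5, -0.30 for Kdr, -0.10 for Flt1, -0.72 for Tek, -0.39 for Vwf, -0.55 for Emcn and -0.05 for Lyve1.

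With 1 library left out at a time, values in IR against Con ran from -0.09 to 0.46 for Lyve1, -0.37 to 0.13 for Plvap and -0.23 to 0.47 for Vwf. Those in IR+CF-2 against IR ran from -0.16 to 0.78 for Tek, -0.16 to 1.01 for Vwf, -0.09 to 0.86 for Emcn and -0.06 to 1.03 for Lyve1, each low end being the value without IR+CF-2 2. Those in IR+CF-2 against Con ran from -0.31 to 0.53 for Pecam1, -0.14 to 0.36 for Kdr, -0.52 to 0.48 for Tek, -0.17 to 1.16 for Vwf and -0.59 to 0.36 for Emcn. Kdr, Pecam1, Flt1, Emcn and Prox1 in IR against Con, and Prox1 in the other 2 comparisons, kept their sign under all 21 alternatives.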
